A study of Mus musculus with 12 samples.

Results

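Lysosomes are acid organelles in which hydrolases break down protein, glycans and lipids, and their membrane carries the pumps, channels and heavily glycosylated proteins that hold the enzymes in and the acid pH up. The 32 genes described here encode cathepsins and legumain (the endosomal and lysosomal peptidases), glycosidases, lipid-handling proteins, lysosomal membrane proteins and granulin. They were chosen by name, and each was represented by its brightest probe on an Agilent mouse array. All 32 of 32 were found among the 31541 gene names on the array, and all passed the filter on dim probes, which kept 18559 genes. The probes of 31 were well above background on all 12 arrays, and that of Cd68 on 9 of them.

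RNA came from bone marrow of female C57BL/6 mice aged 16 weeks that carried Cebpa-Enh/prom-hCD4, a reporter in which enhancer and promoter sequence of Cebpa, a myeloid transcription factor gene, is joined to human CD4. Surface hCD4 therefore split the sorted cells into hCD4+ and hCD4- fractions. The 6 groups, each with 2 arrays, were hCD4+ granulocyte-macrophage progenitors (GMP), pre-pro-B cells and pro-B cells each sorted into both fractions, and pre-B cells, whose hCD4 state the labels do not give. The series names 2 mice, but the labels do not tie an array to a mouse, and the p-values measure the spread between these arrays, which may in part be technical. Every group carried the reporter, so no array shows mice without it, and the surface markers of each sort are not given in the sources used here. Levels below are log2 processed signal relative to the 75th percentile of the same array. A change is a difference between group means in log2 units with its standard error, and the words rose and fell, or higher and lower, are kept for genes where limma's adjusted p over all 18559 genes was under 0.05. Because the marrow fractions are bulk samples, a change in the mix of cells and a change in RNA per cell cannot be told apart. Single probes say nothing of protein or enzyme activity, and 1 probe's level is not set against another's.

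In antigen-presenting cells the cysteine cathepsins and legumain cut protein antigens and the invariant chain, and in granulocyte precursors the same compartment gives rise to granules that store enzymes. Many lysosomal genes carry a promoter element built around CACGTG that is bound by the MiT/TFE family of transcription factors. The promoter windows of RefSeq (GRCm38.p6, 250 bases before to 50 bases after the annotated start) matched 27 of the 32 genes by symbol and did not hold Ctsb, Ctsh, Ctse, Npc1 or Asah1. CACGTG, which reads the same on both strands, occurred in 9 of these 27 windows (33.3%) and in 8.09% of the windows of all 27025 genes. TCACGTG on either strand, which contains the shorter word, occurred in 8 of 27 (29.6%) against 4.29% of all genes. GAGGAAGT, an Ets-type word of the kind bound by the myeloid and B cell factor PU.1, occurred on either strand in 4 of 27 (14.8%) against 3.69% of all genes.

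The following 30-base stretches, from RefSeq on GRCm38.p6 and written 5′ to 3′ on the strand of the gene, show CACGTG in 8 of the 9 genes that hold it (the other is Gla), with CACGTG and an adjoining T before it or A after it in capitals.
Ctsl (chr13:64370739-64370768, minus strand): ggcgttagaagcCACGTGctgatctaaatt
Lgmn (chr12:102439124-102439153, minus strand): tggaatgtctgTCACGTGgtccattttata
Ctsd (chr7:142387908-142387937, minus strand): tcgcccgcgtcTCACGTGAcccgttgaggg
Ctsa (chr2:164833749-164833778, plus strand): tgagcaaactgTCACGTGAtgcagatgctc
Gaa (chr11:119267811-119267840, plus strand): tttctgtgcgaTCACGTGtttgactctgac
Glb1 (chr9:114401018-114401047, plus strand): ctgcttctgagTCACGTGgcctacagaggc
Lamp1 (chr8:13159088-13159117, plus strand): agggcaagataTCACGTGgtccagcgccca
Mcoln1 (chr8:3500462-3500491, plus strand): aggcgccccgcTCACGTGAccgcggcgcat
Lamp1, the major lysosomal membrane glycoprotein, held 4 copies of CACGTG in its window, and Ctsd, Ctsa, Gla and Mcoln1 held 2 each. The next stretches show ACTTCCTC, the reverse complement of GAGGAAGT, in capitals for the genes that carry it other than Gla.
Ctsc (chr7:88277923-88277952, plus strand): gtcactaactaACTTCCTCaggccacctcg
Ctss (chr3:95526773-95526802, plus strand): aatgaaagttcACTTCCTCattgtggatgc
Gusb (chr5:130003000-130003029, minus strand): atccaggacttcaagcgACTTCCTCtttct
A match describes these letters and does not show a bound site. The levels of the genes with and without CACGTG are set side by side after the comparisons.

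Cebpa, whose regulatory sequence drives the reporter, had mean levels of 1.78 ± 0.27 (SD, n = 2) in GMP, -0.97 ± 0.62 in the hCD4- and -0.49 ± 0.20 in the hCD4+ fraction of pre-pro-B cells, -6.10 ± 1.03 and -1.69 ± 0.35 in those of pro-B cells, and -5.92 ± 0.48 in pre-B cells. Markers of other cell types also differed among the groups. They are given as each list's summed signal in multiples of the array's 75th percentile, a sum in which the brightest genes weigh most. On the 4 pre-pro-B arrays, where most of the 32 genes were highest, 8 of 8 plasmacytoid dendritic cell markers were above background and summed to 694 to 952, against 94.2 to 217 on the other 8 arrays. Classical dendritic cell markers (5 of 7 above background) summed to 96.2 to 99.1 there, against 0.240 to 11.4 elsewhere, with Xcr1 not above background. The B lineage markers Ebf1, Pax5 and Ms4a1 were not above background on the pre-pro-B arrays, and the list summed to 13.3 to 19.3, so the name pre-pro-B is the label's.

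In hCD4+ pro-B cells, where Ctsh, Cd63 and Grn were higher than in hCD4- pro-B cells, 9 of 9 B lineage markers were above background (389 to 392 against 545 to 557 in hCD4- pro-B cells). All 7 neutrophil primary granule and GMP markers were also above background there and summed to 130 to 143. They summed to 7.27 to 7.66 in hCD4- pro-B cells (5 of 7 above background) and 944 to 1155 in GMP. Of the 7 markers 6 were higher (background: 11.6% of all genes) and 1 lower (background: 8.86%) in hCD4+ than in hCD4- pro-B cells. The bright member Mpo read 6.65 and 6.56 in hCD4+ pro-B cells, against -3.39 and -0.53 in hCD4- pro-B cells. Classical dendritic cell markers summed to 10.1 to 11.4 against 1.13 to 1.54, and plasmacytoid ones to 179 to 182 against 115 to 120. Macrophage and monocyte markers (6 of 13 above background) summed to 7.98 to 9.54 against 1.42 to 1.79. Emr1, C1qa, C1qc, Fcgr1, Mertk and Vcam1 were among those not above background. Of 8 kept markers of this list 4 were higher (background: 11.6%) and 0 lower (background: 8.86%). Its bright member Csf1r read 2.88 and 2.57 in hCD4+ pro-B cells, against 0.32 and 0.25 in hCD4- pro-B cells. Basophil and mast cell markers summed to 5.19 to 5.97 against 1.84 to 2.15. Neutrophil primary granule markers also summed to 13.4 to 33.6 in hCD4+ pre-pro-B cells, where Cd63 was higher, against 1.98 to 3.20 in hCD4- pre-pro-B cells. Mature neutrophil markers (7 of 10 above background) summed to 14.2 to 25.8 in hCD4- pro-B cells, against 0.343 to 5.06 in the other groups. The part of these cell types in the lysosomal gene levels was not tested.

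The 32 genes differed widely across the sorted groups, and the 2 pre-pro-B groups held most of the high values. By limma's F test, 31 of 32 genes differed among the 6 groups (background: 82.8% of all genes tested), and Gla was the gene that did not pass. The ratio of the highest to the lowest group mean ran from 1.27-fold for Gla to 293-fold for Cd63, with a median of 5.19-fold. In 15 of 32 genes all 4 pre-pro-B arrays lay above the other 8, against 12% of all genes. These were Ctsb, Ctsh, Ctsl, Ctss, Ctsz, Ctsa, Tpp1, Npc1, Psap, Asah1, Cd68, Scarb2, Laptm5, Mcoln1 and Grn. In 9 genes both GMP arrays lay above the other 10, against 18.7% of all genes, and these were Ctsc, Hexa, Gaa, Glb1, Gusb, Lipa, Lamp1, Lamp2 and Cd63. In 16 genes the 6 GMP and pre-pro-B arrays lay above the 6 pro-B and pre-B arrays, against 6.49% of all genes, and in 0 genes the reverse held, against 7.90%.

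**Figure D1:**
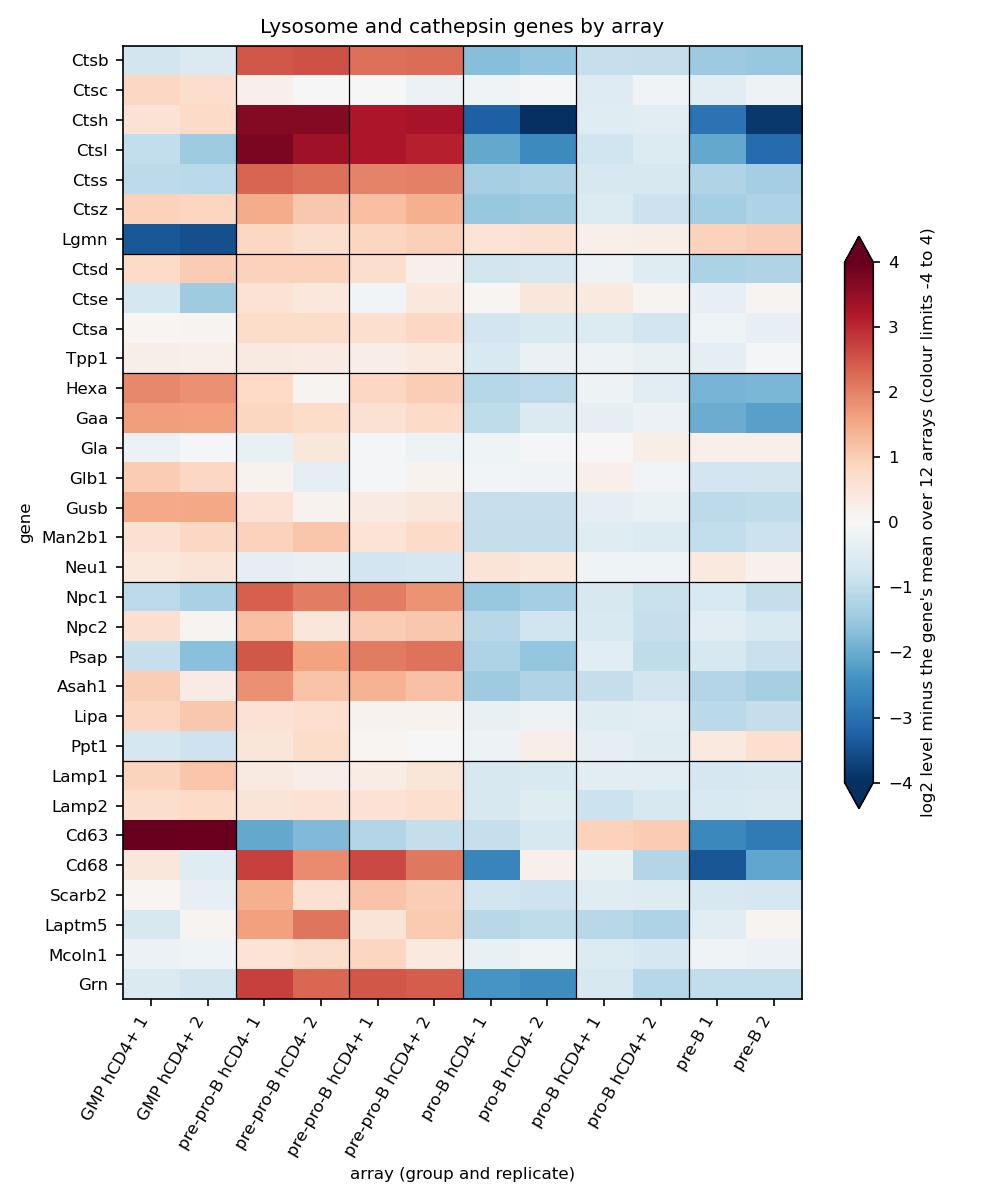
Each row is 1 of the 32 genes, in blocks by role, and each column is 1 of the 12 arrays; colour is the log2 level minus the gene's own mean over the arrays. The Ctsb, Ctsh, Ctsl, Ctss, Ctsz, Npc1, Psap, Cd68 and Grn rows are red on the 4 pre-pro-B arrays, while Hexa, Gaa, Gusb and Cd63 are reddest on the 2 GMP arrays and Lgmn is blue only there.

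The cysteine cathepsins and legumain are described first. The probe for Ctsh, cathepsin H, an aminopeptidase (probe at chr9:89970828-89970887 on mm9), read 4.25 and 4.45 in GMP, 7.34 and 7.35 in hCD4- pre-pro-B, 6.91 and 6.97 in hCD4+ pre-pro-B, 0.42 and -0.53 in hCD4- pro-B, 3.20 and 3.21 in hCD4+ pro-B and 0.73 and -0.18 in pre-B cells. All 4 pre-pro-B arrays were high, GMP and hCD4+ pro-B arrays intermediate, and hCD4- pro-B and pre-B arrays low and overlapping. For Ctsl, cathepsin L, an endopeptidase that also processes the invariant chain (probe at chr13:64465287-64465346), levels were 1.44 and 0.98 in GMP, 6.19 and 5.81 in hCD4- pre-pro-B, 5.65 and 5.52 in hCD4+ pre-pro-B, 0.39 and -0.13 in hCD4- pro-B, 1.62 and 1.88 in hCD4+ pro-B and 0.36 and -0.67 in pre-B cells. Again the 4 pre-pro-B arrays were high and the hCD4- pro-B and pre-B arrays low and overlapping, but here both hCD4+ pro-B arrays lay above both GMP arrays.

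Levels of Ctsb, cathepsin B, were 3.90 and 4.05 in GMP, 7.11 and 7.19 in hCD4- pre-pro-B, 6.85 and 6.88 in hCD4+ pre-pro-B, 2.94 and 3.05 in hCD4- pro-B, 3.70 and 3.68 in hCD4+ pro-B and 3.19 and 3.11 in pre-B cells. Ctss, cathepsin S, the main protease of invariant chain processing in dendritic cells and B cells, read 2.95 and 2.91 in GMP, 6.32 and 6.18 in hCD4- pre-pro-B, 5.96 and 5.98 in hCD4+ pre-pro-B, 2.64 and 2.71 in hCD4- pro-B, 3.35 and 3.34 in hCD4+ pro-B and 2.77 and 2.62 in pre-B cells. Both genes were high on the 4 pre-pro-B arrays, and the hCD4+ pro-B arrays lay above all hCD4- pro-B and pre-B arrays. Ctsz, cathepsin Z, a carboxypeptidase, read 4.83 and 4.77 in GMP, 5.40 and 4.98 in hCD4- pre-pro-B, 5.13 and 5.32 in hCD4+ pre-pro-B, 2.39 and 2.47 in hCD4- pro-B, 3.35 and 3.06 in hCD4+ pro-B and 2.56 and 2.67 in pre-B cells, and here GMP lay close to the pre-pro-B arrays. Ctsc, cathepsin C, which activates the serine proteases of neutrophil granules, was highest in GMP (1.68 and 1.57) and between 0.34 and 1.05 on the other 10 arrays.

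Lgmn, legumain, an endopeptidase that cuts after asparagine and matures several cathepsins (probe at chr12:103632415-103632474), went the other way in GMP. Its levels were -1.95 and -2.07 in GMP, 2.27 and 2.15 in hCD4- pre-pro-B, 2.29 and 2.39 in hCD4+ pre-pro-B, 1.98 and 2.05 in hCD4- pro-B, 1.64 and 1.68 in hCD4+ pro-B and 2.37 and 2.43 in pre-B cells. The 2 GMP arrays lay far below all 10 others, and among those 10 the hCD4+ pro-B arrays were the lowest. Ctsd, cathepsin D, the main aspartic protease of the lysosome, read 4.14 and 4.42 in GMP, 4.31 and 4.31 in hCD4- pre-pro-B, 4.09 and 3.60 in hCD4+ pre-pro-B, 2.65 and 2.72 in hCD4- pro-B, 3.20 and 2.89 in hCD4+ pro-B and 2.13 and 2.18 in pre-B cells. It was high in GMP and pre-pro-B, and lowest in pre-B cells. The highest and lowest group means differed 2.96-fold for Ctse (cathepsin E), 2.70-fold for Ctsa (cathepsin A, which protects Neu1 and Glb1 enzyme) and 1.72-fold for Tpp1 (a tripeptidyl peptidase).

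**Figure D2:**
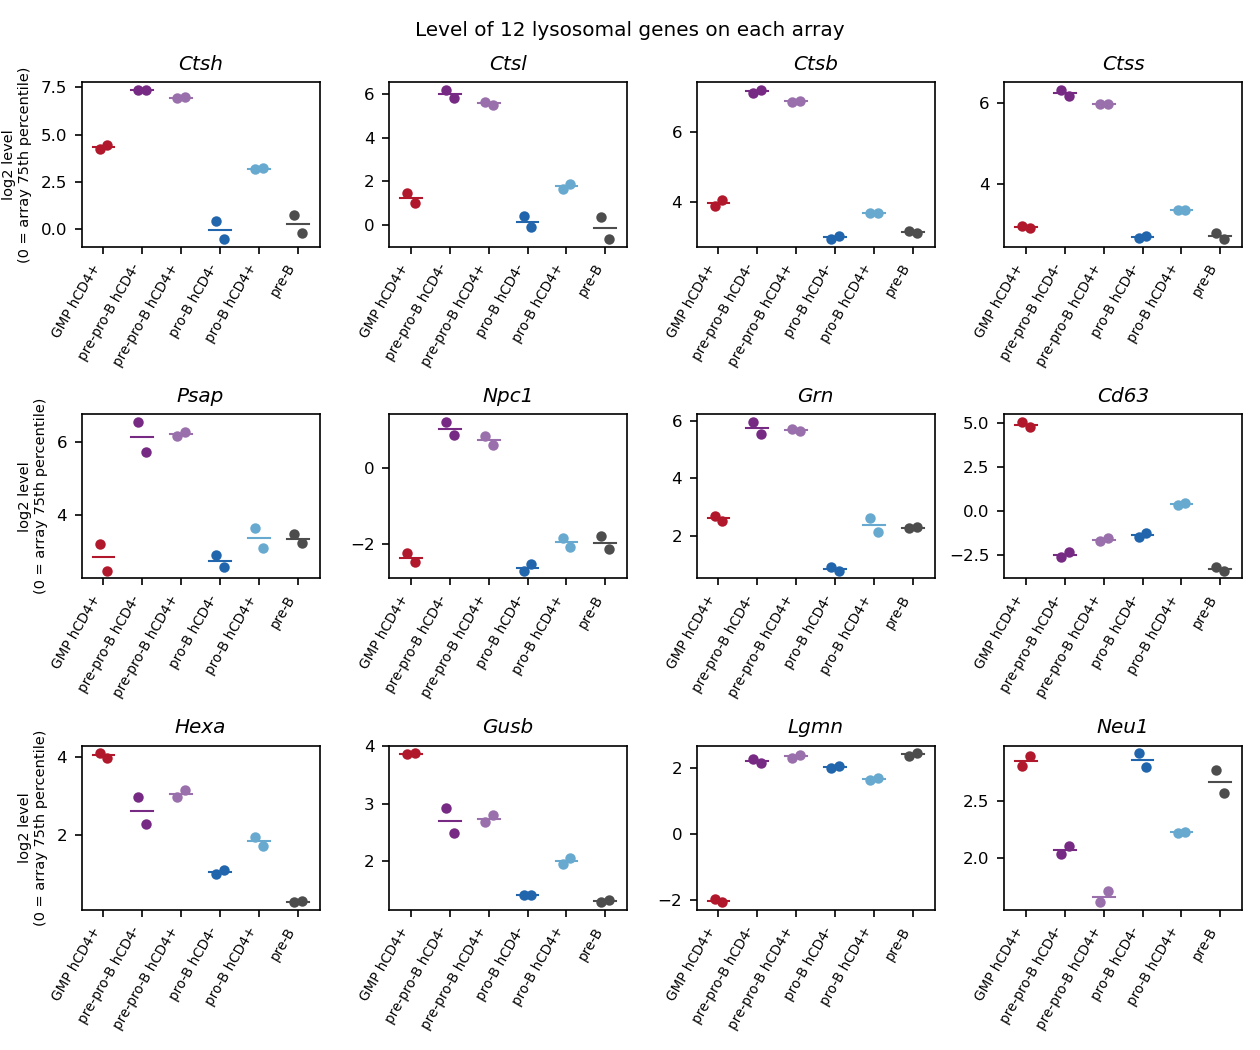
Log2 level of 12 of the genes on each array (points) with the group mean (line); 0 is the 75th percentile of the array, and each panel has its own vertical range. Ctsh, Ctsl, Ctsb, Ctss, Psap, Npc1 and Grn are highest on the 4 pre-pro-B arrays, Cd63, Hexa and Gusb on the 2 GMP arrays, and Lgmn is lowest on the GMP arrays.

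Several glycosidases had their highest level in GMP rather than in pre-pro-B cells. Hexa, the alpha subunit of beta-hexosaminidase, read 4.09 and 3.98 in GMP, 2.97 and 2.28 in hCD4- pre-pro-B, 2.98 and 3.15 in hCD4+ pre-pro-B, 1.01 and 1.11 in hCD4- pro-B, 1.95 and 1.74 in hCD4+ pro-B and 0.29 and 0.33 in pre-B cells. Gusb, beta-glucuronidase, read 3.87 and 3.88 in GMP, 2.92 and 2.49 in hCD4- pre-pro-B, 2.68 and 2.81 in hCD4+ pre-pro-B, 1.41 and 1.42 in hCD4- pro-B, 1.95 and 2.06 in hCD4+ pro-B and 1.29 and 1.32 in pre-B cells, and Gaa, the acid alpha-glucosidase that degrades glycogen, read 4.32 and 4.31 in GMP, 3.53 and 3.38 in hCD4- pre-pro-B, 3.27 and 3.42 in hCD4+ pre-pro-B, 1.65 and 2.08 in hCD4- pro-B, 2.28 and 2.43 in hCD4+ pro-B and 0.68 and 0.50 in pre-B cells. In all 3 the GMP arrays were the highest, the pre-pro-B arrays followed, and both pro-B groups and pre-B were lower. Glb1, beta-galactosidase, read 1.89 and 1.72 in GMP, 1.02 and 0.49 in hCD4- pre-pro-B, 0.82 and 1.01 in hCD4+ pre-pro-B, 0.76 and 0.73 in hCD4- pro-B, 1.08 and 0.75 in hCD4+ pro-B and 0.11 and 0.13 in pre-B cells. Here GMP was highest and pre-B lowest, with the 4 other groups overlapping. Man2b1, an alpha-mannosidase, read 4.30 and 4.53 in GMP, 4.61 and 4.80 in hCD4- pre-pro-B, 4.23 and 4.46 in hCD4+ pre-pro-B, 2.73 and 2.75 in hCD4- pro-B, 3.22 and 3.16 in hCD4+ pro-B and 2.70 and 2.84 in pre-B cells, and its GMP and pre-pro-B arrays all lay above the 6 others.

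Neu1, the lysosomal sialidase, was low in pre-pro-B cells, with levels of 2.80 and 2.89 in GMP, 2.03 and 2.10 in hCD4- pre-pro-B, 1.61 and 1.71 in hCD4+ pre-pro-B, 2.91 and 2.79 in hCD4- pro-B, 2.22 and 2.22 in hCD4+ pro-B and 2.77 and 2.57 in pre-B cells. GMP and hCD4- pro-B arrays were the highest and overlapped, and those of hCD4+ pre-pro-B cells the lowest. Gla, alpha-galactosidase A, stayed between 7.38 and 8.14 on all 12 arrays. Its RefSeq neighbour is the ribosomal protein gene Rpl36a, and whether the probe reads Gla alone was not tested.

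Among the lipid-handling genes the cholesterol exporter Npc1 read -2.23 and -2.48 in GMP, 1.22 and 0.85 in hCD4- pre-pro-B, 0.85 and 0.60 in hCD4+ pre-pro-B, -2.70 and -2.53 in hCD4- pro-B, -1.83 and -2.06 in hCD4+ pro-B and -1.80 and -2.13 in pre-B cells. Psap, the precursor of the saposins that help sphingolipid hydrolases, read 3.20 and 2.44 in GMP, 6.57 and 5.72 in hCD4- pre-pro-B, 6.18 and 6.29 in hCD4+ pre-pro-B, 2.88 and 2.56 in hCD4- pro-B, 3.64 and 3.08 in hCD4+ pro-B and 3.47 and 3.21 in pre-B cells. Asah1, acid ceramidase, read 0.17 and -0.50 in GMP, 1.005 and 0.33 in hCD4- pre-pro-B, 0.56 and 0.35 in hCD4+ pre-pro-B, -2.26 and -2.03 in hCD4- pro-B, -1.77 and -1.54 in hCD4+ pro-B and -1.997 and -2.15 in pre-B cells. All 3 were highest on the 4 pre-pro-B arrays, but Asah1 lay higher in GMP than in the pro-B and pre-B groups whereas Psap and Npc1 overlapped or lay close there. Npc2, which hands cholesterol to Npc1, spanned 4.02-fold over the group means.

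Lipa, the acid lipase, read 0.53 and 0.74 in GMP, 0.25 and 0.33 in hCD4- pre-pro-B, -0.17 and -0.18 in hCD4+ pre-pro-B, -0.64 and -0.54 in hCD4- pro-B, -0.81 and -0.79 in hCD4+ pro-B and -1.39 and -1.28 in pre-B cells. Its GMP arrays were highest and its pre-B arrays lowest, with no overlap with any other group. Ppt1, a palmitoyl-protein thioesterase, read -1.73 and -1.87 in GMP, -0.56 and -0.31 in hCD4- pre-pro-B, -0.97 and -1.07 in hCD4+ pre-pro-B, -1.25 and -0.79 in hCD4- pro-B, -1.42 and -1.52 in hCD4+ pro-B and -0.63 and -0.36 in pre-B cells. Here GMP arrays were lowest, and the hCD4- pre-pro-B and pre-B arrays were highest and overlapped.

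Cd63, a tetraspanin of late endosomes and primary granules (probe at chr10:128349813-128349872 on mm9), had the widest range. Its levels were 5.07 and 4.74 in GMP, -2.62 and -2.35 in hCD4- pre-pro-B, -1.74 and -1.54 in hCD4+ pre-pro-B, -1.51 and -1.24 in hCD4- pro-B, 0.34 and 0.44 in hCD4+ pro-B and -3.17 and -3.41 in pre-B cells. GMP stood far above the rest, hCD4+ pro-B came next, and pre-B was lowest, with no overlap between these 3 groups and any other. Grn, granulin, the precursor that yields lysosomal granulin peptides (probe at chr11:102297692-102297751), read 2.68 and 2.52 in GMP, 5.99 and 5.55 in hCD4- pre-pro-B, 5.74 and 5.67 in hCD4+ pre-pro-B, 0.91 and 0.77 in hCD4- pro-B, 2.63 and 2.13 in hCD4+ pro-B and 2.27 and 2.28 in pre-B cells. The 4 pre-pro-B arrays were high and the hCD4- pro-B arrays alone were low.

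Laptm5, a lysosomal membrane protein of blood cells, read 3.06 and 3.81 in GMP, 5.33 and 5.84 in hCD4- pre-pro-B, 4.21 and 4.74 in hCD4+ pre-pro-B, 2.61 and 2.70 in hCD4- pro-B, 2.59 and 2.47 in hCD4+ pro-B and 3.26 and 3.82 in pre-B cells, with the 4 pre-pro-B arrays on top. Cd68, a glycoprotein of macrophage and dendritic cell lysosomes, read -2.64 and -3.59 in GMP, -0.34 and -1.18 in hCD4- pre-pro-B, -0.44 and -0.96 in hCD4+ pre-pro-B, -5.72 and -2.88 in hCD4- pro-B, -3.39 and -4.27 in hCD4+ pro-B and -6.50 and -5.15 in pre-B cells, again with the 4 pre-pro-B arrays on top. Cd68 was well above background on 0 of 2 pre-B arrays and on 1 of 2 hCD4- pro-B arrays, so its levels there carry a wide error (SD 0.95 and 2.01, n = 2 each). Lamp1 and Lamp2, the main membrane glycoproteins, spanned 3.15-fold and 2.81-fold over the group means, and both were highest in GMP. Scarb2, the receptor that carries glucocerebrosidase to the lysosome, spanned 3.63-fold, and Mcoln1, a calcium channel, 2.33-fold, both with the 4 pre-pro-B arrays on top.

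The step from hCD4+ pre-pro-B to hCD4- pro-B cells, measured on a single slide, showed the broadest fall. In hCD4- pro-B cells 25 of 32 genes were lower (background: 18.6% of all genes lower) and 1 was higher (background: 29.2%). The median change over the 32 was -1.46, against 0.15 over all genes. The change was -6.996 ± 0.34 for Ctsh (128-fold, adjusted p = 1.22e-06), -5.46 ± 0.34 for Ctsl, -4.87 ± 0.19 for Grn and -3.87 ± 0.11 for Ctsb. It was -3.60 ± 0.88 for Cd68, -3.51 ± 0.34 for Psap, -3.34 ± 0.19 for Npc1 and -3.29 ± 0.10 for Ctss. These 8 were picked for large changes, so the lack of overlap between the arrays of the 2 groups is no separate evidence. Every cysteine cathepsin but Ctsc fell, and so did Lgmn, with a change of -0.33 ± 0.11. Changes from -2.80 to -0.42 were called for Ctsz, Asah1, Npc2, Hexa, Scarb2, Laptm5, Man2b1, Gaa, Ctsa, Gusb, Lamp2, Ctsd, Lamp1, Mcoln1, Tpp1 and Lipa.

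Neu1 alone rose, by 1.20 ± 0.11 (adjusted p = 5.43e-05), and the 6 genes not called lay between -0.17 for Glb1 and 0.27 for Cd63, with Ctse, Ctsc, Gla and Ppt1 between them. Of the 26 calls, 22 kept direction and threshold under every alternative tried. Calls were lost for Cd68 without hCD4+ pre-pro-B array 1 or in the fit of the compared arrays alone, for Lipa without either hCD4+ pre-pro-B array or hCD4- pro-B array 1, for Lgmn without any 1 of 6 arrays (both of hCD4+ pre-pro-B, hCD4- pro-B and pre-B), with no filter on dim probes or in the fit of the compared arrays alone, and for Gaa with the mean of its 2 probes. Without hCD4- pro-B array 1 the change of Cd68 was -2.18. Of the calls over all genes in this comparison 61.1% were higher, and 49.2% with cyclic loess. The fit of these 4 arrays alone, which lie on 1 slide, called 1 gene higher and 23 lower.

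GMP against hCD4- pre-pro-B cells, again within 1 slide, showed changes in both directions. In GMP 9 of 32 genes were higher (background: 34.7% of all genes) and 16 lower (background: 30.8%), with a median change of -0.55 against -0.04 over all genes. Among the 7 glycosidases 5 were higher and 0 lower, whereas among the 7 cysteine cathepsins and legumain 1 was higher and 5 were lower. Of the 4 aspartic and serine peptidases 0 were higher and 2 lower, of the 6 lipid-handling genes 1 was higher and 4 lower, and of the 8 membrane proteins and granulin 2 were higher and 5 lower. No test compared these roles. Cd63 rose by 7.39 ± 0.17 (168-fold, adjusted p = 2.77e-08), Hexa by 1.41 ± 0.21, Gusb by 1.16 ± 0.15 and Glb1 by 1.05 ± 0.19. Gaa, Neu1, Lamp1, Ctsc and Lipa rose by 0.34 to 0.86.

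On the other side the change was -4.79 ± 0.34 for Ctsl (27.6-fold, adjusted p = 5.87e-06), -4.22 ± 0.11 for Lgmn, -3.39 ± 0.19 for Npc1 and -3.33 ± 0.34 for Psap. It was -3.32 ± 0.10 for Ctss, -3.18 ± 0.11 for Ctsb, -3.17 ± 0.19 for Grn and -2.996 ± 0.34 for Ctsh. These 8 were picked for large changes, so the lack of overlap between their GMP and hCD4- pre-pro-B arrays is no separate evidence. Cd68, Laptm5, Ctse, Ppt1, Scarb2, Asah1, Mcoln1 and Ctsa were lower too (-2.35 to -0.64), while Lamp2, Ctsd, Tpp1, Gla, Man2b1, Ctsz and Npc2 were not called (-0.45 to 0.20). Another kept probe for Ctsa gave -2.84 and another for Asah1 gave -1.93.

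Of the 25 calls, 17 held under every alternative. Calls were lost for Asah1 and Lipa without GMP array 2 or hCD4- pre-pro-B array 1, and for Cd68 without any 1 of the 8 GMP, pre-pro-B and hCD4+ pro-B arrays. Array median scaling ended the calls of Asah1 (-0.38), Cd68 (-1.90), Ctsa (-0.19), Mcoln1 (-0.37) and Scarb2 (-0.69), and the authors' value table those of Gaa (0.25), Lamp1 (0) and Lipa (0.25). Cyclic loess ended those of Asah1, Cd68 and Lamp1 (0.18), quantile normalization those of Cd68 and Lamp1 (0.07), and normexp with quantile normalization that of Lamp1 (0.06). Array weights ended those of Asah1, Cd68 and Lipa, no filter on dim probes those of Cd68 and Lipa, the replicate block that of Cd68, the mean of probes that of Gaa, and the fit of the compared arrays alone those of Asah1, Lipa and Scarb2. Without hCD4- pre-pro-B array 1 the change was -0.50 for Asah1 and -0.73 for Scarb2, and without GMP array 2 it was -0.50 for Asah1. Among all calls 53.0% were higher, and 69.1% with scaling to the array median, a setting that moved the median of all genes by over 0.1 in this comparison. The 4 arrays alone, on 1 slide, gave 8 genes higher and 14 lower.

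**Figure D3:**
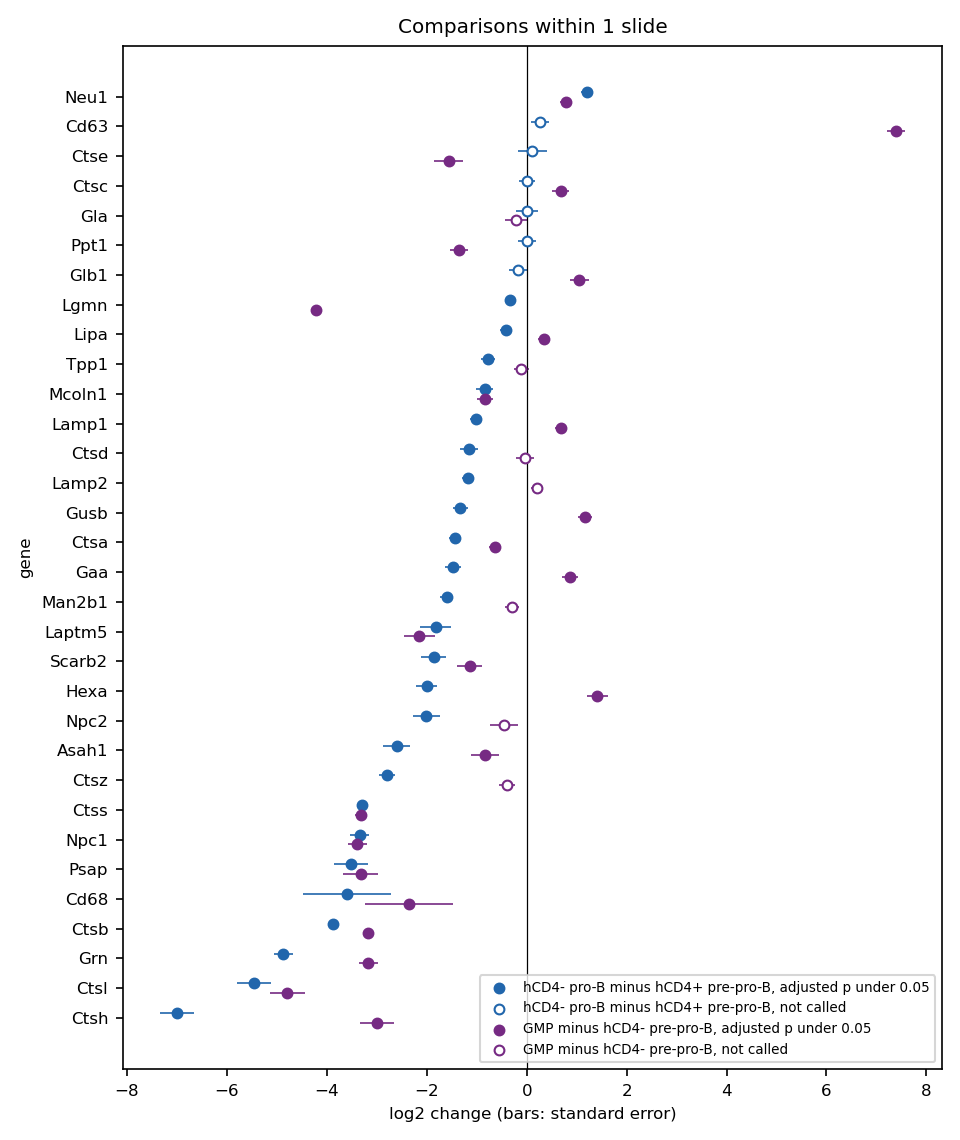
Log2 change of each gene with its standard error in hCD4- pro-B cells relative to hCD4+ pre-pro-B (blue) and in GMP relative to hCD4- pre-pro-B cells (purple), which share no array; filled points passed the threshold. Blue points lie at or left of 0 except for Neu1 and a few uncalled genes near 0, while purple points spread from -4.79 for Ctsl to 7.39 for Cd63.

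Against hCD4- pro-B cells, GMP had more of most lysosomal transcripts. In GMP 20 of 32 genes were higher (background: 22.2% of all genes) and 3 lower (background: 23.0%), and the median change was 1.07 against 0.01 over all genes. After Cd63 (6.28 ± 0.17, adjusted p = 7.75e-08), the largest rises were Ctsh (4.40 ± 0.34), Hexa (2.97 ± 0.21) and Gusb (2.46 ± 0.15). Gaa rose by 2.45 ± 0.16, Ctsz by 2.37 ± 0.17, Asah1 by 1.98 ± 0.27 and Grn by 1.77 ± 0.19. Man2b1, Lamp1, Ctsd, Npc2, Lamp2, Lipa, Ctsl, Glb1, Ctsb, Ctsc, Ctsa and Tpp1 rose by 0.67 to 1.67.

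Lgmn (-4.03 ± 0.11, adjusted p = 5.61e-08), Ctse (-1.33 ± 0.29) and Ppt1 (-0.78 ± 0.18) were lower. Some genes that stood high in pre-pro-B cells were not called here: Ctss differed by 0.25, Npc1 by 0.26 and Psap by 0.10. Cd68, Laptm5, Scarb2, Mcoln1, Gla and Neu1 were not called either (-0.01 to 1.19). Calls were lost for Ctsl without GMP array 1 or hCD4- pro-B array 2 or with no filter on dim probes, for Ppt1 without hCD4- pro-B array 2 and for Tpp1 without hCD4- pro-B array 1. Of all calls 49.1% were higher, and 66.0% with array median scaling, and slide and group cannot be told apart here.

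Within pro-B cells, the hCD4+ fraction had more of several cathepsins and of Cd63 and Grn. Of 32 genes 10 were higher (background: 11.6% of all genes) and 2 lower (background: 8.86%), with a median change of 0.32 against 0.02 over all genes. Ctsh rose by 3.26 ± 0.34 (9.58-fold, adjusted p = 0.000716), Cd63 by 1.76 ± 0.17 (adjusted p = 0.000566), Ctsl by 1.62 ± 0.34 and Grn by 1.54 ± 0.19 (adjusted p = 0.00161). Hexa rose by 0.78 ± 0.21, Ctsz by 0.78 ± 0.17, Ctsb by 0.70 ± 0.11 and Npc1 by 0.67 ± 0.19, with Ctss (0.67 ± 0.10) and Gusb (0.59 ± 0.15) close behind. Neu1 (-0.63 ± 0.11) and Lgmn (-0.35 ± 0.11) were lower. Among the roles, 5 of 7 cysteine cathepsins and legumain were higher and 1 lower, against 0 of 4 aspartic and serine peptidases in either direction.

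The 20 genes not called ran from -0.45 for Ppt1 to 0.64 for Psap. The hCD4+ pro-B mean lay between a lower hCD4- pro-B mean and a higher hCD4+ pre-pro-B mean in 20 of 32 genes, against 14.8% of all genes. That pattern needs a lower mean in hCD4- pro-B than in hCD4+ pre-pro-B cells. In that comparison 5 of 32 changes were above 0, so the count is not independent of the fall given above. Ctsh, Cd63, Grn and Ctsb kept their calls under every alternative, and the other 8 did not. Leaving out 1 array ended the call of Ctsl (hCD4- array 2 or either hCD4+ array), Ctsz (either hCD4- array or hCD4+ array 1), Neu1 (hCD4- array 1) and Gusb (any of the 4). Hexa lost its call without any of these 4 or either pre-B array, Npc1 without any of the 4 or either hCD4+ pre-pro-B array, and Lgmn without any 1 of 10 arrays (all but those of hCD4- pre-pro-B), while Ctss lost its call with array median scaling alone. Without 1 pro-B array the number higher was 6, 6, 5 and 6 for hCD4- arrays 1 and 2 and hCD4+ arrays 1 and 2. Array median scaling gave 5 higher and 5 lower, and with it 31.1% of all calls were higher, against 56.7% in the main setting. It ended the calls of Hexa, Ctsz, Gusb and Npc1 as well as that of Ctss. The authors' table, cyclic loess, quantile normalization and normexp with quantile normalization each ended the calls of Npc1 and Lgmn. The 2 groups were hybridised on different slides, and the effects of slide and group cannot be told apart.

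Among pre-pro-B cells the same split moved few of the genes. In hCD4+ cells 1 of 32 was higher (background: 8.78% of all genes) and 3 were lower (background: 8.27%), shares close to or below the background. The median change was -0.08 against -0.06 over all genes. Cd63 rose by 0.85 ± 0.17 (adjusted p = 0.0145), while Laptm5 (-1.11 ± 0.31, adjusted p = 0.045), Lipa (-0.47 ± 0.11) and Neu1 (-0.41 ± 0.11) were lower. The 28 others lay between -0.58 for Ppt1 and 0.44 for Hexa, with Ctsh at -0.40 ± 0.34 and Ctsl at -0.41 ± 0.34, neither called. None of the 4 calls held under every alternative. Cd63 was lost without hCD4+ pre-pro-B array 2, and Lipa without hCD4- array 2 or either hCD4+ array. Laptm5 was lost without hCD4- pre-pro-B array 2, either hCD4+ pre-pro-B array or any of the 4 pro-B arrays, and Neu1 without any 1 of the 11 arrays other than hCD4- pre-pro-B array 1. Without hCD4- array 1 there were 2 genes higher and 5 lower, without hCD4- array 2 limma called 0 lower (3 at an unadjusted p under 0.05), and without either hCD4+ array it called 0 lower (4 at an unadjusted p under 0.05). Without hCD4+ pre-pro-B array 2 limma also called 0 higher (1 at an unadjusted p under 0.05). Without either hCD4+ pro-B array 1 was lower, and in the fit of the 4 pre-pro-B arrays alone limma called 0 in either direction, with 1 higher and 4 lower at an unadjusted p under 0.05. Over all genes 51.5% of calls were higher, against 83.4% with array median scaling and 68.3% with cyclic loess. The replicate spread was widest in hCD4- pre-pro-B (median SD 0.221 over all genes, against 0.098 to 0.152 in the other groups), which the shared estimate can understate, and these groups too lie on different slides.

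**Figure D4:**
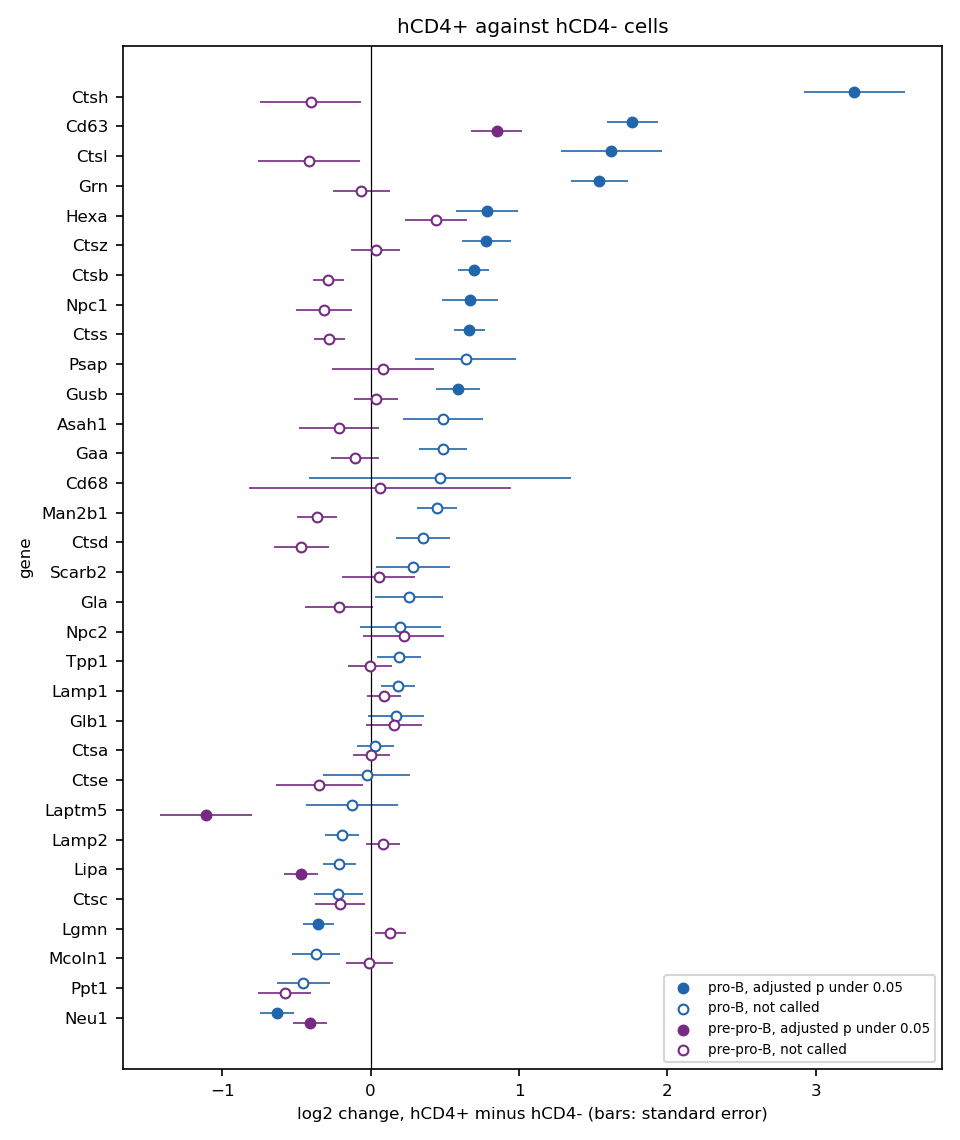
Log2 change of each gene, hCD4+ minus hCD4-, with its standard error, in pro-B cells (blue) and pre-pro-B cells (purple); filled points passed the threshold. In pro-B cells 10 points are filled to the right of 0, led by Ctsh at 3.26, and in pre-pro-B cells Cd63 at 0.85 is the single filled point there.

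The difference between these 2 hCD4 contrasts was tested as an interaction. The contrast was larger in pro-B cells for 8 of 32 genes (background: 13.0% of all genes) and smaller for 1 (background: 10%). For Ctsh the difference was 3.66 ± 0.48 (adjusted p = 0.00209), for Ctsl 2.04 ± 0.48, for Grn 1.60 ± 0.27 (adjusted p = 0.00625) and for Npc1 0.98 ± 0.27. For Ctsb it was 0.98 ± 0.15, for Ctss 0.94 ± 0.15, for Cd63 0.92 ± 0.25 and for Man2b1 0.81 ± 0.19, and for Lgmn it was -0.49 ± 0.15. Ctsh and Grn kept their calls under every alternative. Leaving out hCD4+ pro-B array 1 left 4 genes higher, and leaving out either hCD4- pro-B array, hCD4+ pro-B array 2 or either hCD4+ pre-pro-B array left 5. Ctsl lost its call without either hCD4+ pre-pro-B array, hCD4- pro-B array 2 or either hCD4+ pro-B array. Npc1 lost its call without hCD4- pre-pro-B array 1, and Cd63 without hCD4- pre-pro-B array 2, and both without either hCD4+ pre-pro-B array or any pro-B array. Man2b1 lost its call without hCD4- pre-pro-B array 2, hCD4+ pre-pro-B array 1, either hCD4- pro-B array or hCD4+ pro-B array 1, and Lgmn without any 1 of the 11 arrays other than hCD4- pre-pro-B array 1. Ctsb and Ctss lost theirs with array median scaling, which moved the median of all genes in this comparison by over 0.1. That scaling also ended the calls of Ctsl, Npc1, Cd63 and Man2b1. Cyclic loess ended those of Npc1, Cd63 and Lgmn, and quantile normalization those of Cd63 and Lgmn. Over all genes 56.6% of calls were higher, against 18.03% with array median scaling, 41.0% with cyclic loess, 45.9% with quantile normalization and 45.7% with normexp and quantile normalization.

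Pre-B cells, compared on the same slide with hCD4+ pro-B cells, had less of many of the genes. In pre-B cells 13 of 32 were lower (background: 24.0% of all genes) and 5 higher (background: 18.8%), with a median change of -0.28 against 0.01 over all genes. The change was -3.68 ± 0.17 for Cd63 (12.9-fold, adjusted p = 4.02e-06), -2.93 ± 0.34 for Ctsh, -1.91 ± 0.34 for Ctsl and -1.77 ± 0.16 for Gaa. Hexa fell by 1.53 ± 0.21, and Ctsd, Glb1, Gusb, Ctss, Ctsz, Ctsb, Lipa and Man2b1 were lower by less (-0.88 to -0.43). Laptm5 rose by 1.02 ± 0.31, Ppt1 by 0.97 ± 0.18, Lgmn by 0.74 ± 0.11, Neu1 by 0.44 ± 0.11 and Ctsa by 0.40 ± 0.12. The 14 genes not called included Grn (-0.10), Npc1 (-0.02) and Psap (-0.02), and Cd68, which was not well above background in pre-B cells and had a ratio of hCD4+ pro-B to pre-B level of at least 1.64-fold (adjusted p = 0.105, not called; the bound sets the pre-B level at the dimmest signal well above background on each array or at the probe's own, whichever is higher). Markers of other cell types were lower in pre-B cells too: 6 of 7 neutrophil primary granule and GMP markers were lower (summed level 6.13 to 6.21, against 130 to 143 in hCD4+ pro-B cells), 5 of 5 kept classical dendritic cell markers (0.240 to 0.835, against 10.1 to 11.4) and 5 of 6 basophil and mast cell markers (0.0893 to 0.0946, against 5.19 to 5.97). Of 8 plasmacytoid markers 5 were lower and 1 higher, and of 8 kept macrophage and monocyte markers 4 were lower and 0 higher. Their part in the lysosomal changes was not tested.

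Of the 18 calls, 11 held under every alternative. Without 1 array calls were lost for Ctsa (either pre-B array or hCD4+ pro-B array 2), Ctsz (either pre-B array or hCD4+ pro-B array 1), Glb1 (pre-B array 1 or hCD4+ pro-B array 1) and Laptm5 (pre-B array 2 or either hCD4+ pro-B array). Neu1 was lost without pre-B array 1 or either hCD4+ pro-B array, and Man2b1 without any 1 of the 6 pro-B and pre-B arrays. The number higher was 3 without either pre-B array or hCD4+ pro-B array 1 and 2 without hCD4+ pro-B array 2. The mean of the 2 Gaa probes ended its call, its other probe having changed by -0.03. The authors' table, cyclic loess, quantile normalization and normexp with quantile normalization each ended the call of Man2b1. Array median scaling ended those of Ctsa and Ctsz, and cyclic loess that of Ctsz. The 4 arrays of this slide alone gave 3 genes higher and 13 lower.

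Against hCD4- pro-B cells the pre-B arrays differed less. In pre-B cells 5 of 32 genes were higher (background: 19.7% of all genes) and 6 lower (background: 21.4%), shares close to or below the background. Grn rose by 1.44 ± 0.19 (adjusted p = 0.000893), Npc1 by 0.65 ± 0.19, Ppt1 by 0.52 ± 0.18, Ctsa by 0.43 ± 0.12 and Lgmn by 0.39 ± 0.11. Cd63 (-1.92 ± 0.17, adjusted p = 0.000132), Gaa (-1.28 ± 0.16), Hexa (-0.75 ± 0.21), Lipa (-0.74 ± 0.11), Glb1 (-0.62 ± 0.19) and Ctsd (-0.53 ± 0.18) were lower. Ctsh at 0.33 ± 0.34 and Ctsl at -0.28 ± 0.34 were not called, and the other probe of Gaa read 0.94 and that of Ctsa 1.77. Grn, Cd63 and Lipa kept their calls under every alternative. Ctsa, Glb1, Hexa and Lgmn lost theirs without any 1 of the 4 arrays, Npc1 without pre-B array 1 or either pro-B array, Ppt1 without any 1 of 9 arrays (all but hCD4- pro-B array 2 and the hCD4- pre-pro-B pair) and Ctsd without any 1 of 10 (all but those of hCD4+ pre-pro-B), and without hCD4- pro-B array 1 Ppt1 stood at 0.29. Gaa lost its call with the authors' table (-0.30) and with the mean of its probes (-0.17). The authors' table, cyclic loess, quantile normalization and normexp with quantile normalization each ended the calls of Npc1 and Ctsd. Array median scaling ended that of Npc1 too. The number higher was 2 without either pre-B array or hCD4- pro-B array 2 and 1 without hCD4- pro-B array 1, and the number lower was 3 without either pre-B array or hCD4- pro-B array 2. Of all calls 47.9% were higher, against 34.8% with array median scaling, and slide and group cannot be told apart. Cd68 was not called (adjusted p = 0.2), and it was well above background on 0 of 2 pre-B arrays and 1 of 2 hCD4- pro-B arrays.

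The comparisons above share arrays (the GMP, hCD4- pro-B, hCD4+ pro-B and hCD4+ pre-pro-B arrays each enter several), so a gene that recurs in them is not independent evidence. The 9 genes with CACGTG in the promoter window and the 18 without it can be set side by side in the comparison of hCD4- pro-B with hCD4+ pre-pro-B cells. There 7 of 9 and 14 of 18 were lower (background: 18.6% of all genes), with median changes of -1.02 and -1.71. In hCD4+ against hCD4- pro-B cells 1 of 9 and 6 of 18 were higher (background: 11.6% of all genes), with medians of 0.19 and 0.37. The ratio of highest to lowest group mean had a median of 3.21-fold for the 9, whose stretches are printed above for all but Gla, and 4.97-fold for the 18.

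Other genes of the lysosomal pathway were read from lists, with 23 of 24 other hydrolases, 17 of 19 proton pump subunits, 9 of 9 genes of mannose 6-phosphate sorting (which routes new hydrolases to the lysosome), 6 of 8 cathepsin inhibitors and 7 of 11 lysosomal transporter and scaffold genes kept. From hCD4+ pre-pro-B to hCD4- pro-B cells 15 of 23 other hydrolases were lower and 1 higher (median -1.16), 9 of 17 pump subunits were lower and 0 higher (median -0.61), and 6 of 7 transporter and scaffold genes were lower and 0 higher (median -0.85). Ctsw, a cathepsin of cytotoxic lymphocytes, changed by -4.53 ± 0.18 and the pump subunit Atp6v0a1 by -2.14 ± 0.24. Of the sorting genes 5 of 9 were lower and 2 higher, and the mannose 6-phosphate receptor gene Igf2r rose by 3.93 ± 0.19 while Sort1 fell by 2.53 ± 0.13.

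In hCD4+ against hCD4- pro-B cells 5 of 23 other hydrolases were higher and 1 lower, with Arsb, an arylsulfatase, at 1.58 ± 0.26, Ctsw at 1.42 ± 0.18 and Acp5, an acid phosphatase, at -1.34 ± 0.15. The background shares for these counts are those given with each comparison. Of the cathepsin inhibitors, Cst7, the gene for cystatin F, rose by 2.21 ± 0.31 there and by 2.39 ± 0.31 in pre-pro-B cells, and was 6.94 ± 0.31 higher in GMP than in hCD4- pre-pro-B cells. In GMP against hCD4- pre-pro-B cells 1 of 23 other hydrolases was higher and 9 lower, with Ctsw at -6.11 ± 0.18. Against hCD4- pro-B cells GMP had 12 higher and 4 lower, and 7 of 17 pump subunits higher and 2 lower. Pre-B cells had 5 of 17 pump subunits higher and 0 lower against hCD4+ pro-B cells. Of the MiT/TFE family Mitf alone was matched by name, and it was 1.05 ± 0.23 higher in hCD4+ than hCD4- pro-B cells and 4.36 ± 0.23 higher in GMP than in hCD4- pro-B cells. From hCD4+ pre-pro-B to hCD4- pro-B cells Mitf fell, with a change of -3.79. It was also lower in pre-B than in hCD4+ pro-B cells (-1.65) and higher in GMP than in hCD4- pre-pro-B cells (0.93). Between the 2 pre-pro-B fractions (0.36) and between pre-B and hCD4- pro-B cells (-0.60) it was not called.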

How the data were processed

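Bone marrow RNA from 12 sorted samples (6 groups of 2) was hybridised to 1-colour Agilent mouse arrays. The authors extracted spot intensity with Feature Extraction 10.7.3.1 (protocol GE1_107_Sep09), per the file headers, which place probes on mm9. The RNA was amplified linearly and labelled with Cy3, per the labels' protocols. The authors also deposited a table of log2 values whose scale and centring are not stated. Its columns had a median of 6.5 on every array, correlated with the scanner levels at r of 0.940 to 0.954, and served as an alternative.

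The deposited processed intensity was put on the log2 scale after division by each array's 75th percentile (246 to 946 units). Control spots and 2469 outlier values were left out, 0 were saturated, and spots were averaged to 39429 probes. Probes that exceeded background clearly on the 2 arrays of any group were kept (51.0% to 57.2% of probes per array were above background), and each of 18559 genes was represented by its brightest probe. Of the 32 genes, 26 had 1 kept probe and 6 had 2 (Asah1, Ctsa, Ctsd, Gaa, Lamp2 and Laptm5). Group means were compared with limma 3.58.1 (lmFit and eBayes, R 4.3.3), two-sided, with Benjamini-Hochberg adjustment over all genes, after a check on simulated data. Precision is limited by having 2 arrays in a group.

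The groups lay on 3 slides: GMP with hCD4- pre-pro-B, hCD4+ pre-pro-B with hCD4- pro-B, and hCD4+ pro-B with pre-B. Slide was therefore balanced in the 3 comparisons within a slide, where the fit of the compared arrays alone is the within-slide value, and cannot be told apart from group in the others. The mean net signal of the negative controls was 66.1 to 68.5 on the hCD4+ pro-B and pre-B slide. On the other slides it was 37.5 to 42.7. The effect of this difference on the levels was not tested.

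The members and the lists of other genes were chosen with earlier results of these data known. Every member is named at least once. In each comparison up to 8 called members with the largest change are given with values by array, and at most 3 genes of any other list are named. Alternatives were other normalizations, no filter on dim probes, the mean of a gene's probes, array weights, a replicate block, the compared arrays alone and each array left out. Leaving out both hCD4- pre-pro-B arrays was added after seeing the data. Some genes of the marker and pathway lists are not reported here by name, although they count in the lists' totals.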

Additional observations from a re-analysis of the deposited data

Results flagged for a closer look

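For 9 of the 32 genes the contrast between hCD4+ and hCD4- cells differed between pro-B and pre-pro-B cells by the interaction test of limma, whose p-values were adjusted over all genes. Each contrast spans slides, and the effects of slide and group cannot be told apart. Ctsh, the aminopeptidase cathepsin H, changed by 3.26 in pro-B and -0.40 in pre-pro-B cells, a difference of 3.66 ± 0.48 (adjusted p = 0.00209). Ctsl, cathepsin L, changed by 1.62 in pro-B and -0.41 in pre-pro-B cells, a difference of 2.04 ± 0.48 (adjusted p = 0.0215). Grn, granulin, changed by 1.54 in pro-B and -0.06 in pre-pro-B cells, a difference of 1.60 ± 0.27 (adjusted p = 0.00625). These 3 had the largest differences. Npc1, the cholesterol exporter, changed by 0.67 in pro-B and -0.31 in pre-pro-B cells, a difference of 0.98 ± 0.27 (adjusted p = 0.0338). Ctsb, cathepsin B, changed by 0.70 in pro-B and -0.28 in pre-pro-B cells, a difference of 0.98 ± 0.15 (adjusted p = 0.00382). Ctss, cathepsin S, changed by 0.67 in pro-B and -0.28 in pre-pro-B cells, a difference of 0.94 ± 0.15 (adjusted p = 0.00435). In each of these 6 genes the pre-pro-B contrast was at or below 0. Cd63, the granule and endosome tetraspanin, changed by 1.76 in pro-B and 0.85 in pre-pro-B cells, a difference of 0.92 ± 0.25 (adjusted p = 0.0319). Man2b1, an alpha-mannosidase, changed by 0.45 in pro-B and -0.36 in pre-pro-B cells, a difference of 0.81 ± 0.19 (adjusted p = 0.0212). Lgmn, legumain, changed by -0.35 in pro-B and 0.13 in pre-pro-B cells, a difference of -0.49 ± 0.15 (adjusted p = 0.0491). Cd63 was higher in hCD4+ cells at both stages, and Lgmn was the gene whose contrast was smaller in pro-B cells. In all 9 genes both hCD4+ pro-B arrays lay on the same side of both hCD4- pro-B arrays. The 9 were picked by a test that uses these arrays, so this is no separate evidence. The part of the dendritic cell and granule markers that were also higher in hCD4+ pro-B cells was not tested.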

How the results depend on the processing

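Of 128 called changes, 79 kept their direction and stayed past the threshold under all alternatives that gave a value (up to 23 each), and none reversed. Median scaling of the arrays gave 2 genes higher and 4 lower in the interaction (8 and 1 in the main setting), 5 higher and 5 lower in hCD4+ pro-B cells (10 and 2), 1 higher in pre-B against hCD4- pro-B cells (5) and 0 lower in hCD4+ pre-pro-B cells (3; 1 at an unadjusted limma p under 0.05). With it the median of all genes stood at 0.24 in the pre-pro-B contrast, -0.19 in the pro-B contrast, -0.46 in the interaction, 0.41 in GMP against hCD4- pre-pro-B cells, 0.27 in GMP against hCD4- pro-B cells, and -0.16 in pre-B against hCD4- pro-B cells. With no filter on dim probes, 5 were higher in the interaction, 1 in pre-B against hCD4- pro-B cells, 3 in pre-B against hCD4+ pro-B cells and 0 lower in hCD4+ pre-pro-B cells (8 at an unadjusted limma p). The fit of the compared arrays alone, which has fewer residual degrees of freedom, gave 3 higher in pre-B against hCD4+ pro-B cells and 0 in both directions in pre-pro-B cells. Array weights gave 0 in both directions there, with 1 higher and 3 lower at an unadjusted limma p. The 1 lower gene of the interaction, Lgmn, was not called (0 genes lower) with array weights, the authors' table, cyclic loess, the mean of probes, no filter, normexp with quantile normalization, quantile normalization, the compared arrays alone or the replicate block, and had an unadjusted limma p under 0.05 in all but the authors' table. With these settings other than array weights, the pro-B contrast had 1 gene lower. The size of called changes moved by over 1.5 times with the authors' table for Cd68, Ctsa, Ctsc, Ctsd, Ctse, Gaa, Lgmn, Npc1 and Ppt1, which kept their direction, and for Lamp1, which stood at 0 in GMP against hCD4- pre-pro-B cells. The causes were not tested beyond what these constructions show.

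Leaving out 1 array, the genes called higher and lower numbered 8 to 9 and 14 to 17 in GMP against hCD4- pre-pro-B, 1 and 22 to 25 in hCD4- pro-B cells relative to hCD4+ pre-pro-B, 2 to 6 and 10 to 13 in pre-B against hCD4+ pro-B, 19 to 21 and 2 to 3 in GMP against hCD4- pro-B, 1 to 6 and 3 to 6 in pre-B against hCD4- pro-B, 5 to 11 and 0 to 2 in the pro-B contrast, 0 to 2 and 0 to 5 in the pre-pro-B contrast, and 4 to 9 and 0 to 1 in the interaction. The F test called 30 to 32. A group left with 1 array is assumed to vary like the others.

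Deviations of same-numbered arrays correlated at -0.007 to 0.255 between groups, not over 0.1 for every pair of groups, so the replicate numbers were not used to pair the samples in the main setting. Whether same-numbered arrays came from 1 mouse is not given in the labels. With the replicate block 9 genes were higher and 15 lower in GMP against hCD4- pre-pro-B cells, 11 higher and 1 lower in the pro-B contrast, and 8 higher and 0 lower in the interaction. Without both hCD4- pre-pro-B arrays, 25 genes stayed lower in hCD4- pro-B than in hCD4+ pre-pro-B cells. Cd68 alone among the 32 genes was not well above background on every array. Cd63 was dim in pre-B cells too, at -3.17 and -3.41. The dimmest signals well above background on those arrays lay at -4.74 and -4.35. The 293-fold range of Cd63 has these pre-B levels at its lower end. Its change in pre-B against hCD4- pro-B cells was -1.92 in the main setting and -1.25 with normexp and quantile normalization.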
